A study of Drosophila melanogaster with 35 samples.

Results

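Binding of B-type lamin to the genome of untreated Kc167 cells was described from 4 of the 35 two-colour arrays of a study of the Drosophila nuclear lamina. These are the arrays labelled as Lam DamID replicates 2907, 2921, 2945 and 2955, and they were chosen by that label. Each one set DNA from cells that express full-length Lam fused to Dam, an adenine methyltransferase of E. coli, against DNA from cells that express Dam alone, with no drug or hormone in either culture. Kc167 is an established cell line made from Drosophila melanogaster embryos, and both proteins came from transfected plasmids. Dam-Lam carried Cy5 on arrays 2907 and 2921 and Cy3 on arrays 2945 and 2955. The context comes from other arrays of the series: 4 arrays of Dam-Lam delta CaaX over Dam, in which Lam lacks its last 4 amino acids, 2 arrays of mRNA over genomic DNA, and 2 arrays of Dam-Lam over Dam in cells kept for 24 h with 100 nM trichostatin A (TSA), a histone deacetylase inhibitor given to both the Dam-Lam and the Dam cells.

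The nuclear lamina is a meshwork of lamin filaments under the inner nuclear membrane. Lam, also called lamin Dm0, is anchored there by a lipid that is added at the CaaX motif at its C-terminus. In DamID, the fused Dam methylates adenines near the places the protein contacts, and the ratio to Dam alone corrects for how open the DNA is to the enzyme. In many animal cells, stretches of the genome that lie at the lamina hold genes that are silent or weakly transcribed. The value used throughout is a log2 ratio with each array centred on its own median, so a gene at 1 had a ratio 2-fold above that of the middle probe of the array. It shows relative contact, not the share of cells or alleles at the lamina.

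Across 8062 probe units, of which 6970 are genes with a symbol, 1637 (20.3%) had a ratio above and 1204 (14.9%) a ratio below that of the middle probe by limma's moderated test at an adjusted p under 0.05. Of 7799 units with a value on all 4 arrays, 2285 (29.3%) lay above 0 on every array and 2191 (28.1%) below 0 on every array. The calls on the high side reached farther from 0. The median fitted log2 of the genes called higher was 0.82 and that of the genes called lower -0.65, while the median of all units was -0.02 and the median SE 0.15. Among the 6749 genes measured on all 4 arrays, 684 exceeded 0.5 on every array and 246 lay under -0.5 on every array. At a level of 1 the counts were 160 and 11, and at 1.5 they were 22 and 3. High ratios that held on every array were thus more frequent than equally low ones at each of these levels.

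The 4 arrays ranked genes alike, and one of them, array 2945, was noisier than the rest. Pearson's r over 7802 to 8059 units was 0.76 between 2907 and 2921, 0.78 between 2921 and 2955, and 0.64 between 2907 and 2955. With array 2945 it was 0.61 for 2907, 0.59 for 2921 and 0.51 for 2955. These are correlations across genes that share probes and, for some pairs, a dye. All 6 were positive, also between arrays with exchanged dyes, so the deposited values run the same way on all 4 arrays. Spearman's rho was 0.58 to 0.65 for the pairs with 2945 and 0.66 to 0.81 for the others. Array 2945 had 8231 rows with a value against 8436 to 8477 on the others, and an SD of 0.89 against 0.59 to 0.64. On it 25 rows lay beyond 4 in either direction, against 0, 1 and 6 on 2907, 2921 and 2955.

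Gene by gene, the value on array 2945 differed by more than 1 from the median of the other 3 for 557 of 6749 genes (8.25%). The same measure gave 102 genes (1.51%) for array 2907, 64 (0.948%) for 2921 and 176 (2.61%) for 2955. Differences above 2 occurred for 82 genes on 2945, 56 of them upward and 26 downward, and for 2, 3 and 13 genes on the other arrays. For the bulk of genes the gap was moderate, with a median absolute difference of 0.34 on 2945 against 0.20 to 0.24 on the others.

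**Figure D1:**
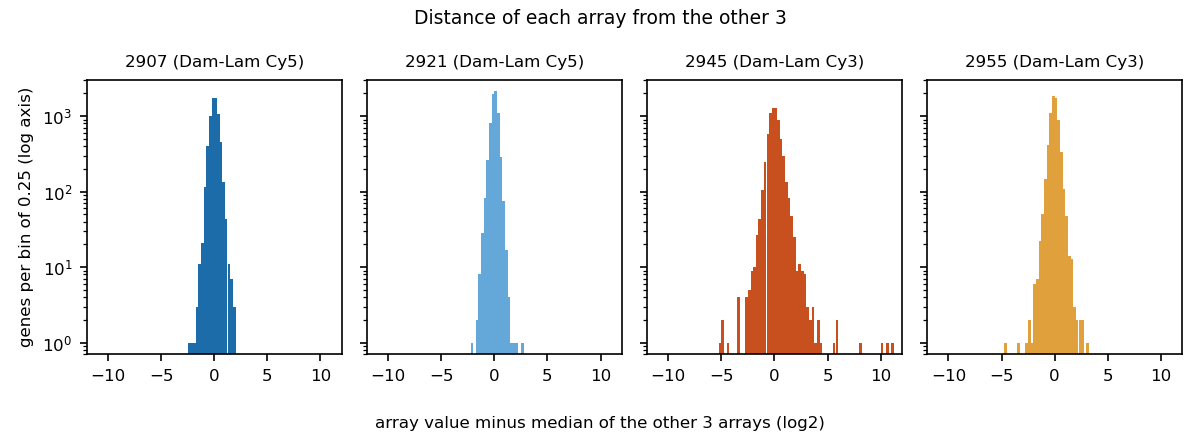
Histograms of the value of each array minus the median of the other 3 (log2, horizontal axis) over 6749 genes with 4 values, with the number of genes per bin of 0.25 on a log axis. The tails of array 2945 reach past 10 on the high side, and 82 of its genes lie more than 2 from the others, against 2, 3 and 13 on the other arrays.

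The genes where array 2945 stood farthest apart show the size of these tails. CG11438 had 0.40, 0.16, 11.6 and 0.72 on arrays 2907, 2921, 2945 and 2955. P5CS, which encodes an enzyme of proline synthesis, had 0.42, 0.67, 11.28 and 0.86. On both genes 3 arrays were mildly high, and array 2945 alone was above 11. For sens-2, a zinc finger transcription factor gene, the values were 0.42, -1.77, 10.03 and -0.06, and for Liprin-alpha, which encodes a presynaptic scaffold protein, they were -0.31, -0.84, 7.93 and -0.14. The zinc transporter gene Zip89B reached 6.32 on array 2945, Peritrophin-A, which encodes a chitin-binding protein, 5.93, and CG32085 5.67. CG13405 went the other way, with 0.29, 1.13, -4.10 and 3.02. None of the 8 passed the test on 4 arrays, with adjusted p from 0.109 to 0.951. Without array 2945, P5CS fell to 0.70 and was called higher (adjusted p = 0.00028), CG11438 stood at 0.50 (adjusted p = 0.00954) and Zip89B at 0.39 (adjusted p = 0.0445). With no dye term, P5CS was still called (0.65, adjusted p = 0.00951), and CG11438 (0.42, adjusted p = 0.0524) and Zip89B (0.33, adjusted p = 0.101) were not. Without array 2945 and with the dye term, sens-2, Liprin-alpha and CG32085 lay below 0, at -0.37, -0.36 and -0.21, and none of these 3 passed the test. CG13405 then stood at 1.87, and without array 2955 in place of 2945 it stood at -1.70, so its direction rests on single arrays.

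Most calls did not need array 2945. The fit on the other 3 arrays called 2075 units higher and 1772 lower, and these included 1591 of the 1637 and 1157 of the 1204 called on 4 arrays. Without a gene-wise dye term the same 3 arrays gave 1893 higher and 1495 lower. The counts did depend on which array was left out. Without 2907 the fit with a dye term called 219 units higher and 28 lower, and without 2921 it called 7 and 4. With the dye term left out these became 1243 and 823 without 2907, and 1018 and 505 without 2921. Without 2955 the counts were 2207 and 2031 with the dye term, and 1344 and 849 with no dye term. In a fit of 3 arrays with a dye term, 1 degree of freedom remains for the spread, and it comes from the pair of arrays that share a dye. That pair is 2945 and 2955 when 2907 or 2921 is left out, and 2907 and 2921 when 2945 or 2955 is. The low counts with the dye term are those whose spread came from 2945 and 2955. The calls per gene list given below share this dependence, and the values on each array are given for many of the genes named.

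Ranked by their weakest array, the 12 genes highest with Dam-Lam all stayed above 1.5 on every array. CG11227 headed them, with 2.11, 2.32, 2.40 and 2.18 on arrays 2907, 2921, 2945 and 2955 (fitted log2 2.25 ± 0.14, SE, n = 4, adjusted p = 0.00176). PH4alphaPV, a prolyl 4-hydroxylase subunit gene of the enzyme family that modifies collagen, had 1.98, 2.60, 2.22 and 2.42. For wa-cup, a gene known for transcription in spermatids, the values were 2.26, 1.98, 2.20 and 2.38. In these 3 genes the arrays differed by less than 0.7 from each other and stood at least 1.9 above 0. Rbfox1, which encodes an RNA-binding regulator of splicing, had 2.21, 2.44, 1.90 and 2.46. The serotonin receptor gene 5-HT7 had 2.37, 1.77, 1.89 and 1.82, with array 2907 highest. In rg, which encodes an A-kinase anchor protein, array 2955 was the highest at 2.75 and array 2945 the lowest at 1.72. The remaining genes of the 12 were Ktch, CG6614, mey, Cyp28a5, intr and Rsod, with fitted values from 1.86 to 2.21. They include a cytochrome P450 gene, Cyp28a5, and Rsod, which is related to superoxide dismutase genes.

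The 12 lowest genes by the same ranking were less extreme apart from a few. Ndg, which encodes the basement membrane protein nidogen, had -2.25, -2.62, -2.38 and -2.61 (fitted -2.46 ± 0.14, adjusted p = 0.00176). The learning gene rsh had -2.51, -2.48, -2.25 and -1.88, and CG3817 had -1.75, -1.80, -1.87 and -1.56. All 4 arrays were low for these 3 genes. They were followed by Cht10, a chitinase gene, with -1.31, -1.53, -1.61 and -1.61. In Bruce, which encodes a ubiquitin-conjugating inhibitor of apoptosis, 3 arrays lay at -1.22, -1.24 and -1.23 and array 2955 at -1.63. The adherens junction gene p120ctn had -1.01, -1.29, -1.02 and -1.13. The others, rgr, CG2926, CG2519, CG17528, Spt and CG2129, had fitted values from -1.47 to -1.17.

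Lam delta CaaX, the protein without its membrane anchor, stood nearer to 0 than Lam at most of these genes. Lam was above it at all 12 of the highest genes and below it at 8 of the 12 lowest. Of the other 4, Lam was above it at Ndg, rsh and rgr, and CG3817 did not pass. The Lam arrays that chose these genes enter this comparison too, so the counts are a description. Over all units, 1632 of 7707 (21.2%) were higher and 1097 (14.2%) lower with Lam than with Lam delta CaaX in a fit over the 8 arrays. At CG11227 the fitted value over Dam was -0.36 with Lam delta CaaX, 2.61 ± 0.22 under that of Lam (adjusted p = 9.83e-05). At PH4alphaPV it was -0.28, a difference of 2.58 ± 0.25 (adjusted p = 0.000147). Each of the 12 highest genes had a fitted value with Lam delta CaaX between -0.64 and 0.37. Ndg and rsh were instead lower still with Lam delta CaaX, at -3.67 and -3.46, so that Lam stood 1.21 ± 0.25 and 1.18 ± 0.21 above it (adjusted p = 0.00414 and 0.00206). CG3817 stood at -1.75 with Lam and -1.78 with Lam delta CaaX, and the difference of 0.04 ± 0.20 did not pass (adjusted p = 0.91). At Ndg, rsh and CG3817 the low ratio over Dam was thus found with both fusion proteins, and rgr had -2.07 with Lam delta CaaX. The difference was widest among the other 8 at CG2519, where Lam delta CaaX stood at -0.01 (difference -1.45 ± 0.18, adjusted p = 0.000372), and least at Bruce (-0.57 ± 0.17, adjusted p = 0.0275).

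**Figure D2:**
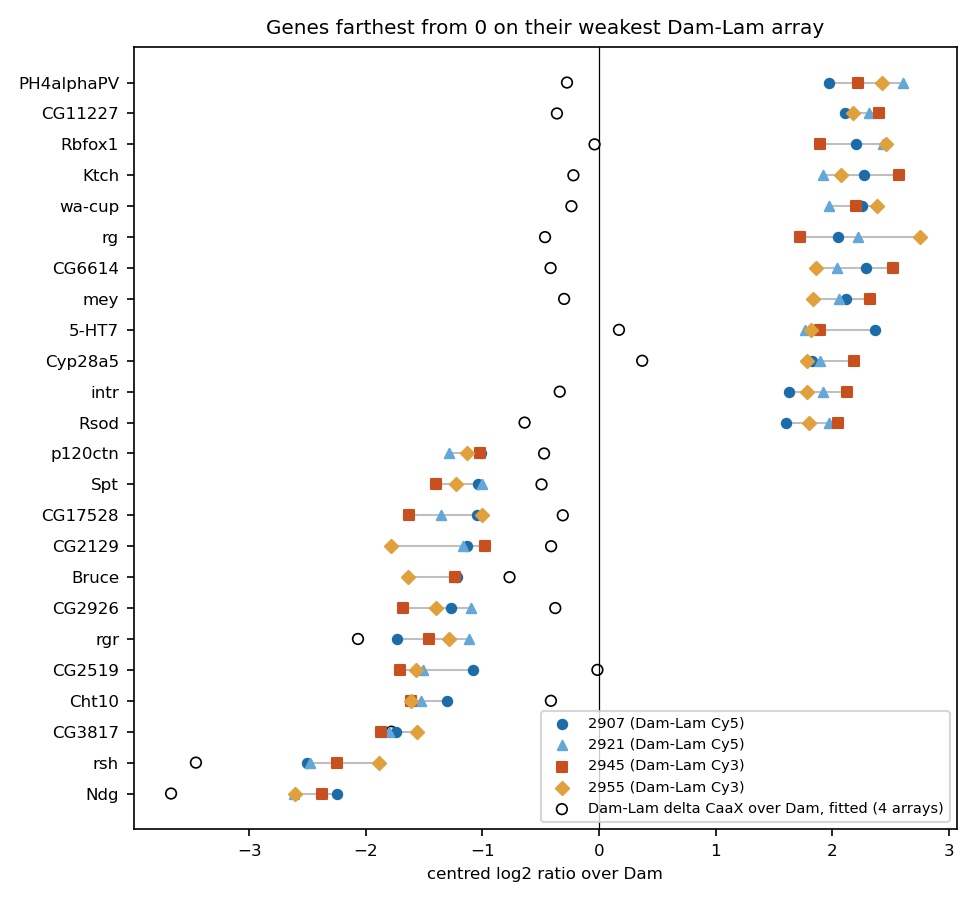
Centred log2 ratio over Dam (horizontal axis) on each of the 4 Dam-Lam arrays for the 12 genes with the highest and the 12 with the lowest value on their weakest array, with grey lines from the lowest to the highest array. Open circles are the fitted values of Dam-Lam delta CaaX over Dam, which lie between -0.64 and 0.37 for the 12 high genes and reach -3.67 at Ndg.

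Grouped by what they encode, genes for surface and secreted proteins lay mostly on the high side. In 10 lists with 201 measured genes, 91 (45.3%) were higher and 12 (5.97%) lower, against 20.3% and 14.9% of all units. Their median fitted log2 was 0.44. The medians on the single arrays were 0.41, 0.40, 0.46 and 0.36, so all 4 arrays placed the group above 0. Of 191 of these genes with 4 values, 113 were above 0 on every array and 20 below. Without array 2945 the fit called 105 higher and 15 lower, against 2075 and 1772 of all 8023 units. With no dye term 67 to 98 were higher and 6 to 12 lower when any 1 array was left out. Over all 7800 to 8023 units these fits called 1018 to 1893 higher and 505 to 1495 lower. The median mRNA over genomic DNA of the group was -1.08, which is below that of the middle probe.

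Neuronal immunoglobulin adhesion proteins, cell surface proteins by which neurons recognise each other, had a median of 0.62. Of 41 genes, 24 (58.5%) were higher and 2 (4.88%) lower, against 20.3% and 14.9% of all units. The gene dpr8 had 1.34, 1.40, 1.98 and 1.78 on arrays 2907, 2921, 2945 and 2955 (1.62 ± 0.13, adjusted p = 0.00224). For klg the values were 1.36, 1.28, 1.35 and 0.96. Both were high on every array, whereas dpr5 had 0.92, 0.79 and 0.66 on 3 arrays and 3.81 on array 2945, which carries most of its fitted value of 1.54 ± 0.45 (adjusted p = 0.0376). Cont and dpr14 were the 2 lower genes, at -0.70 ± 0.14 and -0.55 ± 0.14.

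Ion channel genes were higher at 13 of 25 (52%) and lower at 1 (4%), with a median of 0.54. The shares of all units were 20.3% and 14.9%. Ca-alpha1D, a voltage-gated calcium channel gene, had 1.55, 1.52, 1.53 and 1.01 (1.40 ± 0.15, adjusted p = 0.00274). SK, which encodes a calcium-activated potassium channel, had 1.31, 0.98, 2.14 and 1.06. The potassium channel gene Shab had 0.93, 1.21 and 1.27 on 3 arrays and 3.05 on array 2945. All 3 stayed above 0.9 on every array. The lower gene, pain, encodes a channel for noxious heat and had -0.47, -0.42, -0.34 and -0.78.

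Neurotransmitter receptor genes were higher at 9 of 17 (52.9%, against 20.3% of all units), with a median of 0.67. Lam was above Lam delta CaaX at 9 of 17 and below at 0. GABA-B-R3, a metabotropic GABA receptor gene, had 1.30, 1.51, 1.55 and 1.14. The kainate-type glutamate receptor gene clumsy had 1.28, 1.25, 0.75 and 0.96. The 1 lower member, TyrRS at -0.54 ± 0.14, encodes a tRNA synthetase and was taken into the list by its symbol alone. Genes of synaptic release were higher at 7 of 15 (46.7%) and lower at 2 (13.3%, near the 14.9% of all units). Their median was 0.54 with Lam and 0.23 with Lam delta CaaX. Lam was above Lam delta CaaX at 3 of 14 tested genes and below at 3, against 21.2% and 14.2% of all units. Fife, which encodes an active zone scaffold, had 1.32, 1.78, 2.35 and 1.61, and Rim, a second active zone gene, had 1.64, 1.33, 0.93 and 1.21. Syt14 was low on every array, with -0.95, -0.90, -0.76 and -0.77, and Rop, which encodes a SNARE regulator used in secretion outside neurons too, stood at -0.56 ± 0.13. Neuropeptide and peptide hormone receptor genes were higher at 7 of 24 (29.2%, against 20.3% of all units) and lower at 0. Their median was 0.40. Lam was above Lam delta CaaX at 13 of the 24 and below at 0. The insulin-like peptide gene Ilp2 had 2.08, 1.55, 0.92 and 0.90, and the bursicon receptor gene rk had 1.73, 1.52, 0.87 and 0.47. In both the arrays with Dam-Lam in Cy5 were the higher ones.

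Secreted ligand genes were higher at 8 of 20 (40%, against 20.3% of all units) and lower at 0. Their median was 0.37. Lam was above Lam delta CaaX at 5 of the 20 and below at 1, against 21.2% and 14.2% of all units. The BMP-type ligand gene scw had 1.33, 1.60, 1.72 and 1.43 (1.52 ± 0.14, adjusted p = 0.00245). The gene of the Toll ligand, spz, had 1.04, 1.52, 0.82 and 1.12, all above 0.8. Lam delta CaaX was high at spz too, at 0.86, and the difference from Lam did not pass (0.27 ± 0.21, adjusted p = 0.335). Of 4 innexin genes, which encode gap junction proteins, Inx3, ogre and Inx2 were higher, at 1.06 ± 0.14, 0.76 ± 0.13 and 0.58 ± 0.17. Serpin genes, which encode protease inhibitors, were higher at 7 of 16 (43.8%) and lower at 2 (12.5%, near the 14.9% of all units). Spn47C had 1.45, 1.85, 1.32 and 1.28, and the highest, Spn100A, had 1.43, 1.65 and 1.43 on 3 arrays and 3.40 on array 2945. Spn77Ba and Spn88Eb were the lower ones, at -0.53 ± 0.14 and -0.44 ± 0.14. Lectin, lysozyme and antimicrobial peptide genes were close to the background, with 3 of 15 higher (20%) and 1 lower.

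Genes of the basement membrane, extracellular matrix and integrins were higher at 10 of 24 (41.7%, against 20.3% of all units) and lower at 3 (12.5%, against 14.9%). Among the higher ones were frac, which encodes a fibrillin-like protein (1.60, 1.74, 1.71 and 0.81), and wb, a laminin alpha chain gene (1.18, 1.71, 1.48 and 0.83). Ppn, which encodes papilin, had 1.38, 1.22, 1.37 and 1.20. All 3 were high on every array, and array 2955 was lowest for each. The 3 lower genes were Ndg and the laminin chain genes LanA (-0.80, -0.47, -1.28 and -0.62) and LanB1 (-0.63, -0.42, -0.99 and -0.53). LanA and LanB1 stood at the 96.6 and 97.4 percentile of mRNA over genomic DNA in these cells, and frac at the 3.0 percentile. Ppn was in contrast both high with Dam-Lam and at the 87.7 percentile of mRNA.

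Detoxification genes were higher at 16 of 49 (32.7%) and lower at 0, with a median of 0.31. Glutathione S-transferase genes had 7 of 20 higher (35%), UDP-glycosyltransferase genes 4 of 16 (25%), and organic anion, cation and ABC transporter genes 5 of 13 (38.5%). The share of all units was 20.3%, which the UDP-glycosyltransferases were near. Lam was above Lam delta CaaX at 2 of 20, 1 of 16 and 5 of 13 of these genes, against 21.2% of all units. It was below at 1, 1 and 0. The list medians with Lam delta CaaX were 0.24, 0.19 and -0.08. GstZ2 had 0.78, 0.93, 0.71 and 0.89, and Ugt35B1 had 1.54, 1.09, 0.51 and 1.26. The transporter genes snu and Oatp30B stood at 1.27 ± 0.13 and 1.20 ± 0.15. Array 2945 went apart from the rest for this group. Its median over the 49 genes was 0.01, against 0.26, 0.47 and 0.43 on arrays 2907, 2921 and 2955. For the glutathione S-transferase genes alone the medians were 0.32, 0.51, -0.01 and 0.42, and for the UDP-glycosyltransferase genes 0.24, 0.50, -0.11 and 0.51. Without array 2945 the fit called 25 of the 49 higher and 1 lower, against 2075 and 1772 of all 8023 units. With no dye term 10 were higher without array 2921, against 1018 of all 7800 units. The transferases are families of similar sequence, so values of single members are uncertain.

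Transcription factor lists held 14 of 46 genes higher (30.4%) and 3 lower (6.52%), against 20.3% and 14.9% of all units. Their median was 0.30. The proneural factor gene ase had 1.28, 1.68, 1.88 and 1.53 (1.59 ± 0.15, adjusted p = 0.00245). Sox102F on chromosome 4 had 2.03, 1.46, 1.90 and 1.66, and the gap-type nuclear receptor gene knrl had 1.33, 0.70, 1.44 and 2.36. These were high on every array. The genes cyc, which encodes the partner of Clock, SREBP, a regulator of lipid synthesis, and sage were lower, at -1.0 ± 0.16, -0.71 ± 0.15 and -0.70 ± 0.15. Without array 2945 there were 15 higher and 7 lower, against 2075 and 1772 of all 8023 units. With no dye term there were 7 higher and 2 lower without array 2921, against 1018 and 505 of all 7800 units. There, 7 of 46 higher is near the share of all units.

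Genes of the machinery for gene expression lay on the low side. Of 161 genes in 4 lists, 48 (29.8%) were lower and 4 (2.48%) higher, against 14.9% and 20.3% of all units. The median was -0.31, with array medians of -0.31, -0.29, -0.36 and -0.29. Below 0 on every array were 82 of 160 genes with 4 values, and 10 were above. Without array 2945 the fit called 66 lower and 7 higher. With no dye term 26 were lower without array 2921 and 33 without array 2907. Over all units the same fits called lower 1772 of 8023, 505 of 7800 and 823 of 7801. The median mRNA over genomic DNA of this group was 0.91.

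Aminoacyl-tRNA synthetase genes, whose products charge tRNAs with amino acids, were lower at 10 of 21 (47.6%, against 14.9% of all units) and higher at 0. Lam was below Lam delta CaaX at 4 of 21, against 14.2% of all units, and above at 0. GluProRS had -0.81, -0.57, -0.89 and -1.11, and AsnRS had -1.03, -0.42, -1.77 and -0.86. Splicing factor genes were lower at 10 of 41 (24.4%) and higher at 0. Lam was below Lam delta CaaX at 11 of 39 tested splicing factor genes and above at 1. Prp8, which encodes the core protein of the spliceosome, had -1.17, -0.92, -1.01 and -0.77 (-0.97 ± 0.14, adjusted p = 0.00497). Genes of RNA polymerases, general transcription factors and Mediator were lower at 17 of 61 (27.9%) and higher at 1 (1.64%). The TFIIH subunit gene mrn had -0.97, -0.95, -0.92 and -1.04, the 4 arrays within 0.2 of each other. The higher one was MED26 on chromosome 4, with 0.66, 0.56, 1.67 and 1.03.

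Translation factor genes were lower at 11 of 38 (28.9%, against 14.9% of all units) and higher at 3 (7.89%). The initiation factor gene eIF3a had -0.52, -0.91, -0.81 and -0.89. The higher ones included eIF4H2 (1.14, 1.71, 1.74 and 1.40) and eIF3d2 (0.60, 1.00, 1.46 and 1.15), with mRNA at the 21.1 and 12 percentile. The third, eIF4B, stood at 0.68 ± 0.20. In the chaperone list 5 of 29 genes were lower (17.2%, near the 14.9% of all units) and 2 higher (6.9%, against 20.3%). The mitochondrial chaperonin gene Hsp60A had -1.20, -1.0, -0.13 and -1.06, with mRNA at the 96.3 percentile. Its paralogues Hsp60B (1.41, 1.38 and 1.24 on arrays 2907, 2921 and 2955, with no value on 2945) and Hsp60C (0.80, 1.18, 1.89 and 0.89) were the higher ones, with mRNA at the 11.5 and 37.7 percentile.

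In all, protein handling lists held 25 of 109 genes lower (22.9%) and 4 higher (3.67%), against 14.9% and 20.3% of all units. Without array 2945, 39 were lower and 7 higher. With no dye term, 9 were lower without array 2921. Over all units, 1772 of 8023 were lower without array 2945. Without array 2921 and the dye term 505 of 7800 were lower, so 9 of 109 is near the share of all units there. Vesicle coat, tether and SNARE genes, which serve membrane traffic in every cell, were lower at 16 of 58 (27.6%) and higher at 0. The exocyst gene Sec8 had -0.65, -1.09, -0.75 and -0.78. Of 22 Rab GTPase genes 4 were lower (18.2%, near the 14.9% of all units) and 2 higher (9.09%). Rab3, the Rab of synaptic vesicles, had 0.65, 0.81, 0.87 and 0.72, while Rab32, which serves lysosome-related organelles, had -1.04, -0.71, -1.07 and -0.59.

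Chromatin lists held 12 of 46 genes lower (26.1%) and 2 higher (4.35%), against 14.9% and 20.3% of all units. Without array 2945, 18 were lower and 3 higher. With no dye term, 5 were lower without array 2921. Over all units the same fits called lower 1772 of 8023 and 505 of 7800. The remodeller gene Chd1 had -1.31, -0.94, -1.28 and -0.91 (-1.11 ± 0.15, adjusted p = 0.00438), and the dosage compensation gene msl-1 had -0.93, -0.79, -1.06 and -0.64. Mi-2, a second remodeller gene, stood at -0.80 ± 0.14. All were low on every array. Of the lamina's own genes, MAN1 had -0.70, -0.36, -0.68 and -0.34 (-0.52 ± 0.15, adjusted p = 0.0342), and Msp300, which encodes a giant nesprin, had 0.72, 0.53, 0.81 and 0.83. LBR stood at -0.21 ± 0.13 (adjusted p = 0.252) and Ote at -0.09 ± 0.23 (adjusted p = 0.773), and neither passed. Lam, LamC and bocks were not among the genes tested.

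Cytoskeleton genes were near the shares of all units (20.3% and 14.9%), with 8 of 43 higher (18.6%) and 9 lower (20.9%). Within the list of kinesins, dyneins and their adaptors, 5 of 30 were higher and 8 lower. The higher ones included the axonemal dynein heavy chain genes Dhc36C (0.81, 0.73, 0.92 and 1.32) and Dhc16F (0.93, 1.32, 0.34 and 0.84), whose products drive cilia and sperm tails. The mitotic and meiotic kinesin genes ncd (-0.85, -1.32, -1.35 and -0.90) and sub (-0.56, -0.71, -0.77 and -1.04) were low on every array. Among tubulin and actin genes, 3 of 13 were higher and 1 lower. Act79B and Act87E were higher, at 0.92 ± 0.15 and 0.52 ± 0.13, with mRNA at the 96.2 and 97.7 percentile. Actin genes resemble each other closely, so the transcript values of single actin genes are uncertain.

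**Figure D3:**
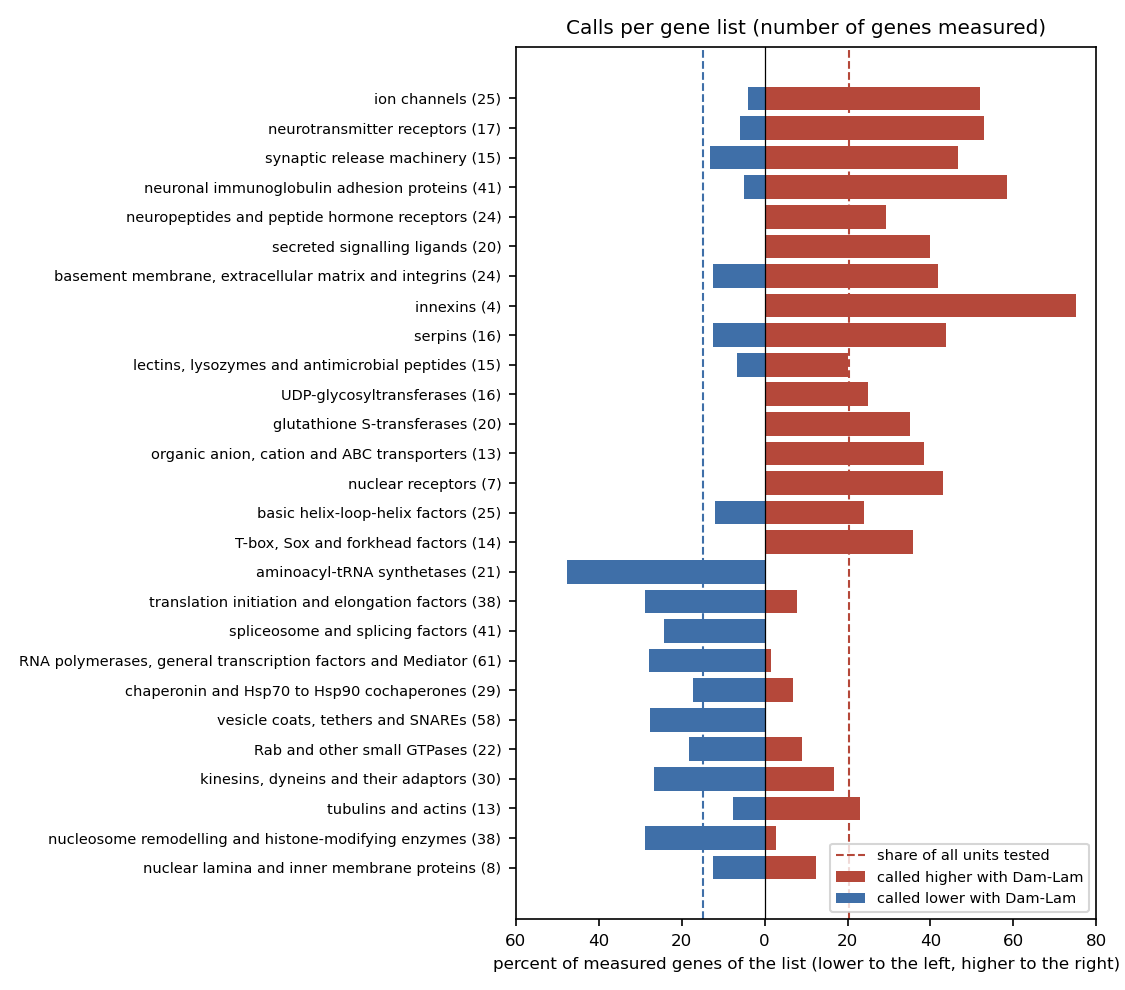
Percent of the measured genes of each of 27 lists that were called higher (bars to the right) or lower (bars to the left), with the number of genes in brackets. Dashed lines give the shares of all 8062 units, 20.3% higher and 14.9% lower; aminoacyl-tRNA synthetase, splicing and vesicle coat genes have no member called higher.

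Dam-Lam ratios followed the transcript level of the same cells in its lower range. Genes were divided into 4 quartiles of 1742 or 1743 by mRNA over genomic DNA. In the lowest quartile the median fitted log2 was 0.44, and 45% of genes were called higher and 3.56% lower. The next quartile had a median of -0.00, with 20.2% higher and 16% lower. The third and the highest had medians of -0.19 and -0.20, with 10.5% and 6.14% higher and 22% and 18.4% lower. The lowest quartile thus stood apart, while the upper pair of quartiles differed by little. The lowest minus the highest quartile gave 0.65, 0.64, 0.65 and 0.55 on arrays 2907, 2921, 2945 and 2955, with a mean of 0.62 ± 0.05 (SD, n = 4). The exact sign-flip permutation test over arrays, two-sided, gave p = 0.13, the smallest that 4 arrays allow (0.188 after adjustment over 3 such tests). Quartiles made from either mRNA array alone gave 0.56 and 0.64.

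In finer steps, the arrays moved together. In the lowest decile of genes by transcript level, the medians on the 4 arrays were 0.54, 0.49, 0.52 and 0.43, and 49.1% of genes were higher. In the fourth decile they lay between -0.02 and 0.05, and from the sixth decile on between -0.23 and -0.14. The share called lower peaked at 23% in the sixth decile and was 15.6% in the highest decile. Across genes, Pearson's r between a Dam-Lam array and an mRNA array ran from -0.39 to -0.22 over 6780 to 6969 genes, with the weakest values for array 2945. These genes are not independent, and both measures come from spots of the same probes.

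**Figure D4:**
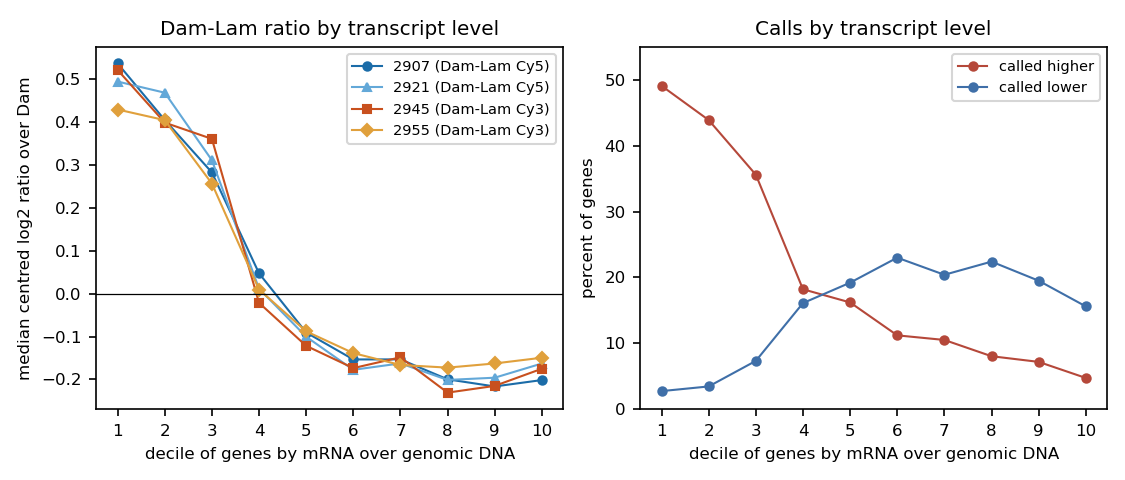
Left, median centred log2 ratio over Dam on each of the 4 Dam-Lam arrays for deciles of 697 genes ordered by mRNA over genomic DNA (1 is the lowest). Right, the percent of those genes called higher or lower; the share called higher goes from 49.1% in the lowest decile to 4.73% in the highest.

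Gene length went with the ratio as well. By annotated span, the longest quartile of genes (median 12.5 kb) had a median log2 of 0.19 and 28% called higher, against medians of -0.05, -0.12 and -0.10 and 19.1%, 18% and 15.7% higher in the other quartiles from the shortest up. Within the lowest mRNA quartile the longest genes had a median of 0.47 and the shortest 0.42. In the third mRNA quartile they had 0.02 and -0.26, and in the highest -0.06 and -0.26.

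Blood cell genes were looked up because Kc cells are known for hemocyte traits. Hml, a hemocyte marker gene, stood at the 98.3 percentile of mRNA and was low with Dam-Lam, at -1.16, -0.85, -1.13 and -1.0 (-1.04 ± 0.14, adjusted p = 0.00438). NimC1, a phagocytosis receptor gene of plasmatocytes, stood at the 3.84 percentile and was high, at 0.80, 1.17, 0.97 and 1.07 (1.00 ± 0.14, adjusted p = 0.00472). Of the other hemocyte genes looked up, the GATA factor gene srp was at the 57.4 percentile, with -0.66, -0.51, 0.14 and -0.95. Only array 2945 was above 0, and the 4 arrays together did not pass (-0.49 ± 0.20, adjusted p = 0.0929). Without array 2945 srp was called lower, at -0.77 with the dye term (adjusted p = 7.93e-05) and at -0.71 with no dye term (adjusted p = 0.00715). Ppn, looked up as a hemocyte gene too, was well transcribed, at the 87.7 percentile, and yet high with Dam-Lam (1.29 ± 0.13, adjusted p = 0.00267). Pxn was at the 49.9 percentile with 0.68 ± 0.19 (adjusted p = 0.0331). The collagen IV genes vkg and Col4a1, at the 55.1 and 67.2 percentile, stood at -0.01 ± 0.14 and 0.42 ± 0.22, neither called. These genes thus had no common order by transcript level. The neuronal gene nSyb was at the 19.0 percentile of mRNA, with 0.18 ± 0.13. He, lz, elav, brp and Syt1 were not among the genes tested.

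Other genes departed from the order by transcript level, in both directions. Within the highest mRNA quartile 107 genes were higher with Dam-Lam. Besides Ppn, they included e(r), with 1.89, 1.06, 1.06 and 1.43 and mRNA at the 95.5 percentile. CG34330 had 1.06, 0.99, 1.63 and 0.88 with mRNA at the 98.8 percentile. Both were high on every array. At e(r) Lam delta CaaX was high too, at 0.85, and the difference from Lam did not pass (0.51 ± 0.23, adjusted p = 0.107). Lam stood above Lam delta CaaX at Ppn (1.63 ± 0.18, adjusted p = 0.000228) and CG34330 (1.48 ± 0.23, adjusted p = 0.000955). With TSA e(r) had -0.16 and -0.03 on arrays 3688 and 3689. Within the lowest mRNA quartile 62 genes were lower, among them Bruce at the 3.37 percentile and Syt14 at the 1.94 percentile. CG12010 had -1.12, -1.29, -0.94 and -1.04 there. Su(var)2-HP2, which encodes a partner of the heterochromatin protein HP1, had -1.0, -0.60, -0.90 and -0.61 at the 19.8 percentile. Hsp70Ab had -2.07 on array 2907 and -0.66, -1.04 and -0.83 on the others, and it has near-identical copies that share probes.

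Neighbouring genes had like ratios. Between a gene and the next measured gene along the chromosome arm, Pearson's r of the fitted log2 was 0.48 over 6843 pairs. It fell to 0.36 with 2 genes' distance, 0.24 with 3, 0.13 with 5, 0.07 with 10 and 0.00 with 50. For mRNA over genomic DNA, r between next neighbours was 0.16. Leaving out pairs whose annotated spans overlap left 6441 pairs and an r of 0.48. When one gene's value came from one array and its neighbour's from another, the 12 combinations gave 0.30 to 0.43, so the likeness did not need a shared array. It was lowest where array 2945 took part.

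The calls showed the same. Next to a gene called higher, 46.9% of genes were higher and 3.47% lower, against 20.2% and 15% next to any gene. Next to a gene called lower, 31.5% were lower and 4.68% higher. Genes above 0 on every array formed 880 runs of adjacent measured genes, and 92 of these held 5 genes or more, with 622 of 1935 genes (32.1%). Genes below 0 on every array formed 1006 runs, and 53 held 5 or more, with 311 of 1872 genes (16.6%). The longest run had 16 genes above 0 and 10 below.

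The run of 16 lay on arm 3R and went from CDase to zfh1, with 42 annotated protein-coding genes between and including them. Its median was 1.20, and 13 of its genes were called. It holds 5 genes of prolyl 4-hydroxylase alpha subunits. PH4alphaNE2 had 2.18, 2.31, 1.27 and 2.38, PH4alphaNE3 had 1.28, 1.55, 1.73 and 1.76, and PH4alphaSG2 had 1.12, 1.34, 0.81 and 1.37, next to PH4alphaPV. The fifth, PH4alphaEFB, was the lowest of them, with 1.09, 0.45, 0.44 and 0.16, and it alone of the 5 was among the well transcribed genes, at the 91.9 percentile of mRNA against 0.92 to 15 for the others. These genes resemble each other in sequence, so values of single members are uncertain. Members of other families in the run were high too, among them Spn100A, the actin filament capping gene tmod (1.20, 1.42, 1.22 and 1.14), eIF4H2 and CG15543 (1.48, 1.48, 1.51 and 1.42). At both ends the values fell off. CDase stood at 0.39 ± 0.13 and zfh1 at 0.35 ± 0.15, neither called, and the genes beyond them, CG2224 and wts, at -0.34 and -0.00. With Lam delta CaaX the median of the run was -0.21, and 14 of 16 genes had a higher value with Lam (adjusted p under 0.05), against 21.2% of all units. The run was chosen on the same Lam arrays, so this count is a description, as are those of the other runs.

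A run of 14 on arm 3L went from CG8564 to Pura, with a median of 0.89 and 12 genes called. It includes frac, mmm (1.26, 1.24, 1.92 and 1.10), Cyp4d8 and Tsp66A, and 13 of its genes were below the middle of all genes in mRNA. Lam was above Lam delta CaaX at 12 of the 14. A run of 13 on arm 2R, from CG9876 to CG3502, had all 13 genes called, with a median of 1.15. Its members include genes named as relatives of other genes, such as RpL22-like (0.57, 1.13, 0.44 and 1.30), Prosbeta5R1 (0.43, 1.43, 0.10 and 0.96) and Gpdh2 (0.95, 1.59, 1.56 and 1.02). In it 12 of 13 genes were below the middle in mRNA, and Lam was above Lam delta CaaX at 12 of 12 tested genes.

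Runs on the low side were shorter and shallower. The run of 10 on arm 3R from Alg12 to CG8516 had a median of -0.69 with 6 genes called. It holds the Mediator gene MED6 (-0.44, -0.44, -0.57 and -0.25) and the ribosomal protein gene RpS29 (-0.93, -0.18, -0.88 and -0.15). Runs of 9 lay on arm 2L from IPIP to Kr-h1, with a median of -0.52 and 4 called, and on arm 2R from Sec31 to CG8243, with a median of -0.66 and 8 called. The second includes the coat protein gene Sec31 (-0.81, -0.50, -0.75 and -0.51), the chaperonin gene CCT8 (-0.64, -0.21, -0.71 and -0.19) and the glycolytic gene Pgi (-0.54, -0.61, -0.70 and -0.80), all low on every array. Lam was below Lam delta CaaX at 4 of 9 tested genes of the run on 3R, 4 of 9 on 2L and 4 of 8 on 2R, against 14.2% of all units.

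**Figure D5:**
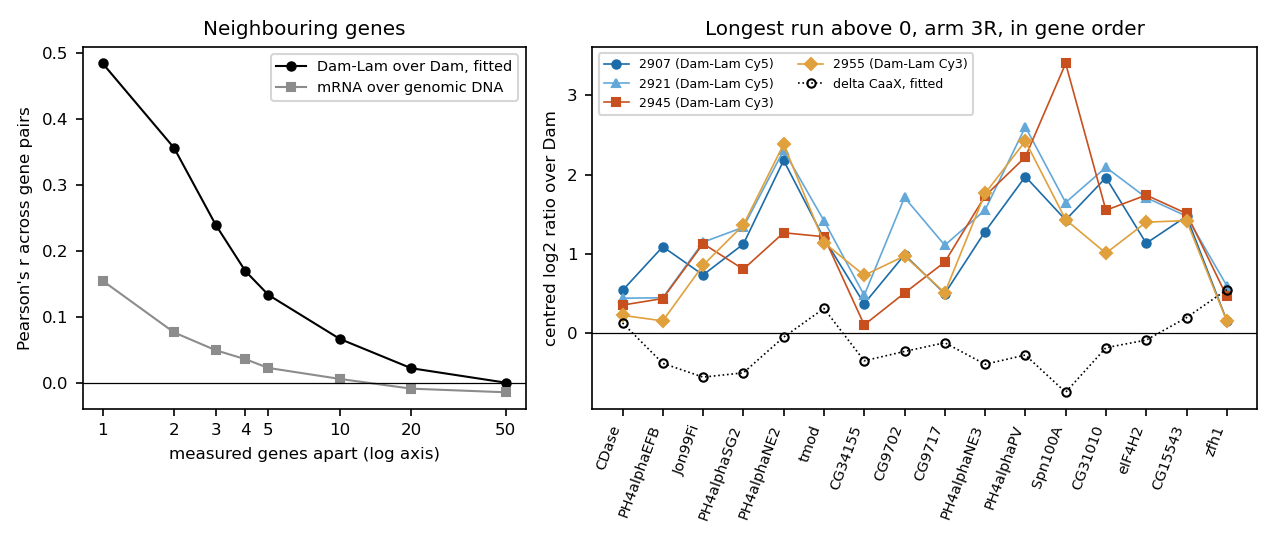
Left, Pearson's r across pairs of genes by the number of measured genes between their places (log axis), for the fitted Dam-Lam ratio and for mRNA over genomic DNA, from 0.48 and 0.16 for next neighbours to about 0 at 50. Right, centred log2 ratio over Dam of the 16 genes of the longest run above 0 in gene order on arm 3R, with 1 line per Dam-Lam array and a dotted line for the fitted value of Lam delta CaaX, which lies under all 4 lines at 15 of the genes.

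The chromosome arms hardly differed. Median fitted log2 was -0.02 on X, -0.03 on 2L, -0.04 on 2R, 0.03 on 3L and -0.05 on 3R. The median of the X minus that of the autosomes was -0.01, 0.05, 0.10 and -0.03 on the 4 arrays, with no common sign (mean 0.03 ± 0.06, SD, exact sign-flip p = 0.5). Only the small chromosome 4 stood off, with a median of 0.14 over 46 genes, of which 32.6% were higher and 10.9% lower. Its median minus that of the other autosomes was 0.17, 0.16, 0.20 and 0.13, above 0 on each array (mean 0.16 ± 0.03, exact sign-flip p = 0.13, the smallest possible). Chromosome 4 was set apart after its values were seen. Its genes had a median mRNA of 0.51, above that of every other arm, so their ratios did not follow the order by transcript level.

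The genes called in untreated cells kept their side in most cases on the 2 arrays with TSA. Of 1229 genes called higher and measured there, 86.5% were above 0 on both arrays and 4.72% below on both, against 41.1% and 37.5% of all 6090 genes. Of 902 called lower, 69.3% were below 0 on both and 10.2% above. The values were nearer to 0, with medians of 0.41 and 0.36 for the first set against 0.80 without TSA, and -0.19 and -0.19 for the second against -0.65. CG11227 had 0.16 and 0.74 on arrays 3688 and 3689 and Ndg -2.12 and -1.0. Both sets were called on the untreated arrays, a choice that favours values far from 0 there, so the gap is a description. The spread of all values was also smaller on the arrays with TSA, with an SD of 0.36 and 0.32. No test was made between the arrays with and without TSA.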

How the data were processed

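The authors deposited ratios on a log scale per probe row, made with limma per the submitters' processing notes. Not given in the sources used here were background correction, normalization, the log base and which channel was divided by which. The deposited values were taken as log2 of channel 1 over channel 2. No spot intensities were used, so precision rests on the number of arrays. The labels do not say whether arrays came from separate cultures, and p-values measure a spread that may be technical.

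Each array was centred on its median. Of 9006 rows, 7843 name 1 gene, 246 several and 917 none. Rows of a gene were averaged to 8421 units, and a unit needed 3 of 4 values. Ratios were tested with limma 3.58.1 in R 4.3.3 (lmFit, eBayes; SE is its moderated standard error), with dye orientation as a covariate of each gene, against 0, two-sided, with Benjamini-Hochberg adjustment over all units. The fit against Lam delta CaaX used 8 arrays and needed 6 values. The scripts were tested on simulated data. Descriptions used Python 3.11.15, pandas 2.3.3, numpy 2.4.6 and scipy 1.17.1. Gene order and spans came from RefSeq's Release 6 annotation, matched for 7135 genes.

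Members, lists and naming rules were chosen with earlier results of these data known. The lists are symbol patterns. Named were the 12 highest and 12 lowest called genes with 1 sign by their weakest array, up to 3 called members per list and direction (not all are given), the 8 genes where array 2945 lay farthest off, genes of the longest runs, lamina and marker genes, and up to 8 exceptions per mRNA quartile. Promoter composition was not analysed here. Alternatives were no centring, no dye term, array weights, a robust fit, scaled arrays, complete units, single rows, each array left out and stricter thresholds. Arrays left out with no dye term, neighbours without overlap or across arrays, chromosome 4 and the gene length classes were added after seeing the data.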

Additional observations from a re-analysis of the deposited data

Results flagged for a closer look

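Among 222 named genes with 4 values, 20 (9.0%) had 1 array whose gap to the nearest of the others took most of the range of the 4 values. Chance gives about 1 in 20 such cases per group of 4. Of the 20, 15 were array 2945, 4 array 2955, 1 array 2921 and 0 array 2907. The 8 genes chosen because array 2945 lay far off add to its count by construction. Array 2945 stood high in CG11438 (11.6), P5CS (11.28), Liprin-alpha (7.93), Zip89B (6.32), Peritrophin-A (5.93), CG32085 (5.67), dpr5 (3.81), Spn100A (3.40), Shab (3.05), olf413 (2.72), spz5 (2.14) and fd59A (2.01). It stood low in CG3502 (0.55), eIF3g1 (-1.44) and Taf10 (-2.82). Array 2955 stood low in Bruce (-1.63), frac (0.81), Ca-alpha1D (1.01) and betaTub65B (-0.0414). Array 2921 stood high in Act87E (0.71), where the other 3 lay between 0.44 and 0.48. In Taf10, dpr5 and fd59A the other 3 arrays had the sign of the fitted value but a smaller size.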

How the results depend on the processing

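By limma, 1637 units were higher and 1204 lower. Leaving out 1 array, with or without the dye term, gave 7 to 2207 higher and 4 to 2031 lower, and 1018 and 505 without array 2921 and the dye term. The low end, without array 2921, still had 2214 units at an unadjusted p under 0.05, and the term leaves 1 degree of freedom there. An adjusted p under 0.01 left 725 and 210, a log2 of at least 1 left 515 and 103, and 0.5 on every array with no test gave 782 and 277. Against Lam delta CaaX the lower count of 1097 became 634 to 1174 with 1 of 8 arrays left out. Other settings stayed within 1.5 times. In no setting compared unit by unit was a unit called on the side opposite to its call on 4 arrays with the dye term. The neighbour correlation of 0.48 was 0.30 at its lowest across arrays. With the dye term, CG13405 went from 0.09 to -1.70 without array 2955 (adjusted p = 1.27e-12) and to 1.87 without array 2945. Each of these fits leaves 1 degree of freedom. With no dye term it stood at -0.89 without array 2955 and did not pass (adjusted p = 0.451), and at 1.48 without array 2945 (adjusted p = 0.0307). The cause was not tested. Of the 12 highest genes, all were called under each setting except without array 2921 with the dye term (5 called). Of the 12 lowest, 10 were called without 2907 and 2 without 2921 in that fit, and all otherwise. No paired analysis was possible because the array numbers are shared by no other group.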
